A study of Mus musculus with 18 samples.

Results

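The lysosome genes described here were 35 mouse genes that encode lysosomal enzymes and membrane proteins, among 55487 genes in the count files. They were picked by what they encode, after Man2b1 had been seen to differ between mutants and controls by more at the later stages. All 35 passed the filter on low counts and were among the 20118 genes tested. RNA was sequenced from forelimb buds of mouse embryos at 3 stages, named by embryonic day as E9.5, E10.5 or E11.5, with 3 libraries in each of 6 groups. Mutants had the genotype Esco2fl/fl;Prrx1-CreTg/0, in which Cre, driven by Prrx1 regulatory sequence that acts in limb mesenchyme, can delete the loxP-flanked Esco2 alleles. Controls were Esco2fl/fl without Cre, so that the effects of Cre and of Esco2 loss cannot be told apart. Esco2 encodes an acetyltransferase that secures cohesion between sister chromatids. The labels describe RNA from individual limb buds and do not tell whether the 3 libraries of each group are from different embryos or litters. The p-values measure the spread between these libraries, which may be technical.

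Lysosomes are acidic compartments in which proteins, glycans, lipids and sulfated matrix sugars are broken down. Most of their soluble enzymes are made in the secretory pathway and are carried to the lysosome by mannose 6-phosphate receptors. Many lysosomal genes are known targets of TFEB, TFE3 and MITF, transcription factors that bind E-box sequences with the core CACGTG, and lysosomes are abundant in macrophages, which clear dead cells from the embryonic limb.

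Upstream sequences are shown because members that differed between mutants and controls fell both among those with this core and among those without it. The windows span 250 bases before to 50 after the start of the gene in RefSeq (GRCm38.p6), and were found for 30 of the 35 members, with 32 windows. CACGTG was present in 10 of the 32 windows (31.2%) and in 7.15% of all 32851 RefSeq windows of the same length. TCACGTG, sought on both strands and overlapping the shorter core, was present in 8 windows (25.0%, against 3.77%), and TCACGTGA in 3 (9.4%, against 0.97%). The 10-base form, with a G before and a C after TCACGTGA, was present in 0 of the 32 windows and in 0.33% of all. The 10 genes with CACGTG were Arsa, Ctsa, Ctsd, Ctsf, Ctsl, Gaa, Glb1, Lamp1, Mcoln1 and Naglu. A match of letters does not show that a factor binds there.

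The 250 bases upstream of 3 members follow, 5′ to 3′ on the strand of the gene, with CACGTG in capitals. Lamp1 (chr8:13158911-13159160, plus strand) held 4 copies, whose first bases lay at -61, -45, -28 and -15 from the gene start. Ctsd (chr7:142387828-142388077, minus strand) held copies at -245 and -98, and Man2b1 (chr8:85083019-85083268, plus strand) held none. In the annotation used for the counts Ctsd extends to 142388038, so its copy at -98 lies inside that gene.
Lamp1: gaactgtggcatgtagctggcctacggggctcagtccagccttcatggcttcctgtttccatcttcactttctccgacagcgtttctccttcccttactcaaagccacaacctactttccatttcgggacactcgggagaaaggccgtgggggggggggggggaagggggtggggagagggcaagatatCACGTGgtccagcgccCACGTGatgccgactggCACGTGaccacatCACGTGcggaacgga
Ctsd: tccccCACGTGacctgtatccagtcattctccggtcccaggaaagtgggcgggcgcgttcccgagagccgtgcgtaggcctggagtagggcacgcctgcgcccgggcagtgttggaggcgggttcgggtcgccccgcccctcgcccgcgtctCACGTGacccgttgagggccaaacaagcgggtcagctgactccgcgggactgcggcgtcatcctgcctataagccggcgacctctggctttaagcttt
Man2b1: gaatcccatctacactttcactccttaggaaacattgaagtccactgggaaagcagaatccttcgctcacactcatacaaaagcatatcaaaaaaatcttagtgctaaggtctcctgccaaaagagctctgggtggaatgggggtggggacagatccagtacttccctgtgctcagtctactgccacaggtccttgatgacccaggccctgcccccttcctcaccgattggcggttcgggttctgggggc
Shorter stretches around the core are given for Ctsf, which rose in E10.5 mutants, for Gaa and Arsa, which fell in E11.5 mutants, and for Mcoln1, a calcium channel gene that is a known TFEB target. Their cores began at -79 in Ctsf (chr19:4855076-4855101, plus strand), at -140 in Gaa (chr11:119267813-119267838, plus strand) and at -16 in Arsa (chr15:89477425-89477450, minus strand). In Mcoln1 the core shown began at -45 (chr8:3500464-3500489, plus strand), inside the gene of the annotation used for the counts, which starts at 3500457.
Ctsf: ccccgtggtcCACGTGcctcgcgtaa
Gaa: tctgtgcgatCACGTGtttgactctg
Arsa: aactcagtgtCACGTGttgtctgctc
Mcoln1: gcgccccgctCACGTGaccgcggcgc

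Total counts ran from 35034237 to 56230058 per library. Esco2 ranged over 25.0 to 28.1, 28.1 to 33.6 and 20.5 to 30.9 CPM in controls at the successive stages and over 15.3 to 19.8, 18.9 to 22.3 and 22.4 to 23.8 CPM in mutants. CPM are counts scaled to the library size, with edgeR's TMM scaling. The counts sum all exons, so they check the deletion only weakly. Of the libraries, 2 stood apart in earlier results: control E9.5 replicate 1, with 22294 genes detected against 24125 or more elsewhere, and mutant E10.5 replicate 3, with 1.96% of counts from haemoglobin genes. The summed level of 7 forelimb mesenchyme markers, Tbx5 among them, was 1542 to 1598 CPM in E10.5 controls and 616 to 839 CPM in E10.5 mutants, while 3 hindlimb markers summed to 29.6 CPM or less in every library. In bulk samples, fewer cells of a type and less RNA per cell cannot be told apart.

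Per length, as FPKM computed from the deposited counts, the most abundant members over the 18 libraries were Psap and Lamp1. Psap, which encodes the precursor of the saposins that help degrade sphingolipids, averaged 90.8 FPKM (67.3 to 119.7 over libraries). Lamp1, an abundant glycoprotein of the lysosomal membrane, averaged 70.2 FPKM (62.3 to 79.8). Ctsz (45.1 FPKM), Cd63 (40.1), Ctsd (30.5) and Ctsb (29.2) came next. The library ranges of Psap and Lamp1 overlapped, as did those of neighbours from Ctsz to Ctsb, whereas the highest Ctsz library (61.7 FPKM) lay just under the lowest Lamp1 library. Man2b1, lysosomal alpha-mannosidase, was the 18th at 6.78 FPKM (3.85 to 13.3). At the low end, Ctss averaged 1.45 FPKM (0 to 7.15), Ctsh 0.761 (0.248 to 2.16) and Manba, beta-mannosidase, 0.567 (0.212 to 1.399).

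**Figure D1:**
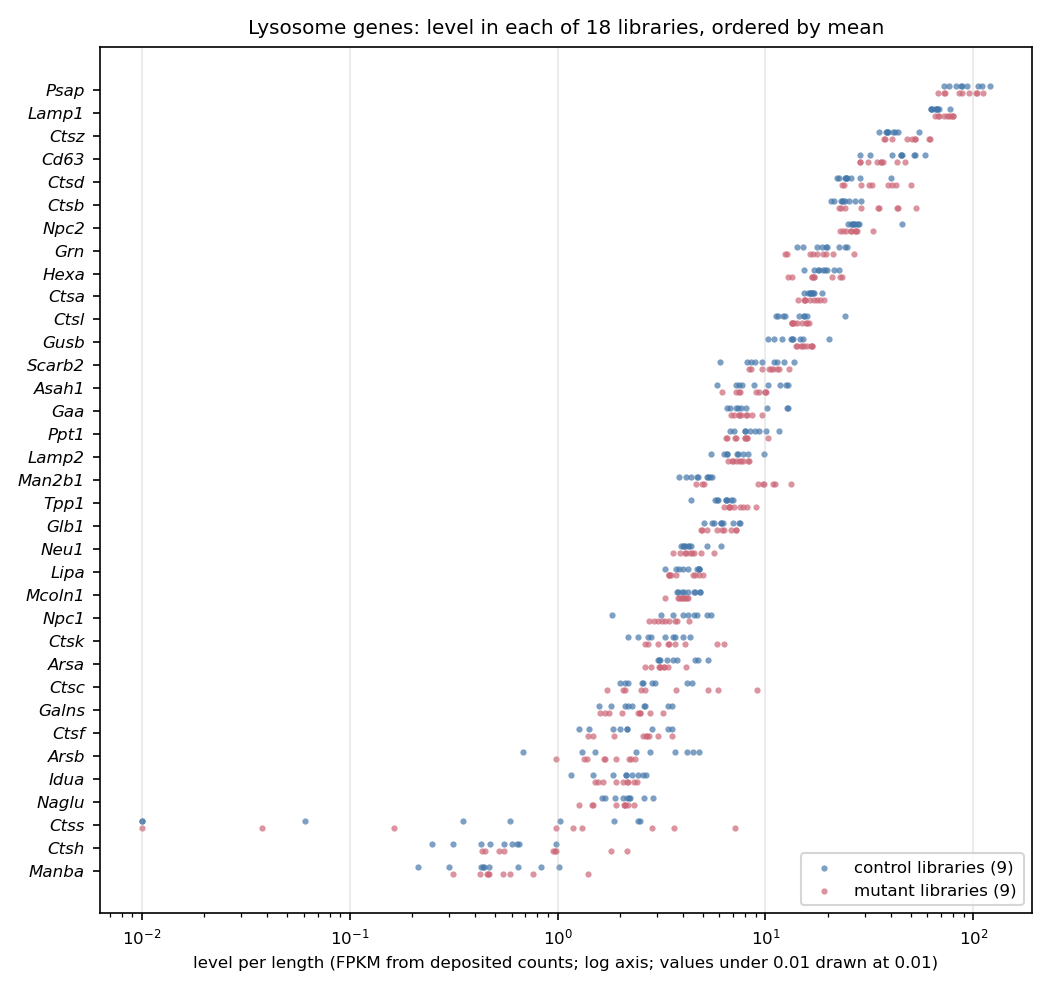
Level of each of the 35 lysosome genes per length (FPKM on a log axis, from the deposited counts) in the 9 control and 9 mutant libraries, ordered by the mean over 18 libraries. Psap and Lamp1 lead the order, and Ctss, at 0 in 3 libraries, has the widest spread.

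The spread between libraries was widest in E9.5 controls, where the median coefficient of variation of the 34 members above 1 CPM was 19.3%. It was 5.47% in E10.5 controls and 8.03% in E11.5 controls. In mutants it was 7.01%, 8.99% and 13.3% at the 3 stages. Of the E9.5 controls, replicate 1 differed from replicates 2 and 3 by 291.6 and 231.9 in chi-square of the counts per gene. Replicates 2 and 3 differed from each other by 26.8. The spread of the members without replicate 1 was not computed. The widest single spread among members above 1 CPM was that of Ctsc, the peptidase that activates granule proteases, in E10.5 mutants (79.0%), which came from 1 library: it was at 14.7, 15.2 and 52.6 CPM, the last in replicate 3.

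The control libraries show how lysosome genes changed as the limb bud grew, a contrast the choice of members did not use. From E9.5 to E11.5, 18 of the 35 members rose and 2 fell, beside 25.3% and 21.8% of all genes tested, or 20 members in either direction beside 47.1% (edgeR's quasi-likelihood test, adjusted p under 0.05 after Benjamini-Hochberg adjustment over all genes). The median log2 change was 0.43 among the members and 0.03 among all genes. In 19 members all E11.5 controls lay above all E9.5 controls and in 1 member below, beside 27.8% and 22.2% of all genes. With both libraries that stood apart left out, 20 rose and 1 fell. The numbers of all genes called without these libraries are not given here.

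Among the genes for enzymes that remove sulfate from matrix sugars and lipids, 3 of 3 rose in controls. Arsb, arylsulfatase B, which acts on dermatan and chondroitin sulfate (chr13:93771630-93943016), was at 4.11, 7.93 and 9.13 CPM at E9.5, at 14.3, 22.1 and 16.7 CPM at E10.5 and at 27.2, 25.3 and 29.0 CPM at E11.5. The 3 stages did not overlap, and the log2 change from E9.5 to E11.5 was 1.94 ± 0.23 (SE, n = 3 against 3 libraries, edgeR adjusted p = 4.0e-06). Arsa, which acts on sulfatide (0.58 ± 0.15, adjusted p = 0.0038), and Galns, which acts on keratan sulfate (0.78 ± 0.17, adjusted p = 0.0015), also rose.

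Of 9 glycosidase genes, 5 rose and 1 fell. Gaa, the acid alpha-glucosidase that degrades glycogen (chr11:119267887-119285454), was at 31.2, 32.2 and 34.6 CPM at E9.5 and at 48.9, 61.4 and 61.0 CPM at E11.5, a log2 rise of 0.80 ± 0.11 (adjusted p = 2.1e-05). E10.5 controls, at 35.4 to 38.6 CPM, lay between. Idua (0.77, adjusted p = 0.0016), which acts on heparan and dermatan sulfate, Glb1, beta-galactosidase (0.44, adjusted p = 0.0021), Manba (1.35, adjusted p = 0.0067) and Man2b1 (0.33, adjusted p = 0.012) rose as well. For Man2b1 the call was lost without control E11.5 replicate 3 (adjusted p = 0.059) and with the trend on gene length removed, where the log2 change was -0.0053 (adjusted p = 0.98). Gusb, beta-glucuronidase (chr5:129989011-130003049), fell: it was at 92.2, 66.9 and 68.6 CPM at E9.5, 60.4 to 61.5 CPM at E10.5 and 54.8, 49.8 and 46.5 CPM at E11.5 (-0.59 ± 0.11, adjusted p = 0.00027). Hexa (0.10), Naglu (0.30) and Neu1 (-0.05), genes for enzymes acting on gangliosides, heparan sulfate and sialic acid, did not pass.

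The lipid genes gave 4 rises of 6. Asah1, acid ceramidase, rose by 0.84 ± 0.14 (adjusted p = 0.00011), Npc1, the membrane protein that exports cholesterol, by 0.84 ± 0.17 (adjusted p = 0.00081), Psap by 0.54 (adjusted p = 0.00028) and Ppt1, a palmitoyl-protein thioesterase, by 0.51 (adjusted p = 0.0017). Npc2, which hands cholesterol to Npc1, stood at -0.30 (adjusted p = 0.13) and Lipa, acid lipase, at 0.09 (adjusted p = 0.61). Of 5 membrane protein genes, Scarb2, the carrier of glucocerebrosidase, rose by 0.72 (adjusted p = 0.00024) and Lamp2 by 0.43 (adjusted p = 0.0050, lost with the length trend removed). Lamp1 (-0.10), Mcoln1 (0.12) and the tetraspanin gene Cd63 (0.33) did not pass. Grn, which encodes progranulin, rose by 0.54 (adjusted p = 0.0063), and Tpp1, a tripeptidyl peptidase, had 0.04 (adjusted p = 0.84).

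Of the 10 cathepsin genes, which encode lysosomal proteases, 3 rose and 1 fell in controls between E9.5 and E11.5. Ctss, a cysteine protease of antigen-presenting cells, was near the limit of counting at E9.5, with 0, 0 and 4 counts. It was at 0.80, 1.4 and 0.48 CPM at E10.5 and at 2.53, 3.37 and 3.30 CPM at E11.5 (adjusted p = 8.6e-06). Its pooled counts were 4 of 154626581 at E9.5 and 369 of 115064879 at E11.5. No fold is given against so few counts. Ctsf rose from 8.14 ± 2.42 to 16.4 ± 1.91 CPM (mean ± SD, log2 change 1.02 ± 0.18, adjusted p = 0.00021) and Ctsh, an aminopeptidase, from 1.49 ± 0.405 to 3.40 ± 0.863 CPM (1.20 ± 0.31, adjusted p = 0.0044). Ctsl was at 156.8, 99.1 and 102.9 CPM at E9.5 and at 80.5, 94.1 and 99.3 CPM at E11.5, so the groups overlapped by 1 library (-0.39 ± 0.14, adjusted p = 0.033). This call was lost in 3 of the 6 fits without 1 library of these stages, at a log2 change down to -0.15 without control E9.5 replicate 1. Ctsa (-0.05), Ctsb (0.12), Ctsc (0.64), Ctsd (-0.17), Ctsk (0.28) and Ctsz (-0.02) did not pass.

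**Figure D2:**
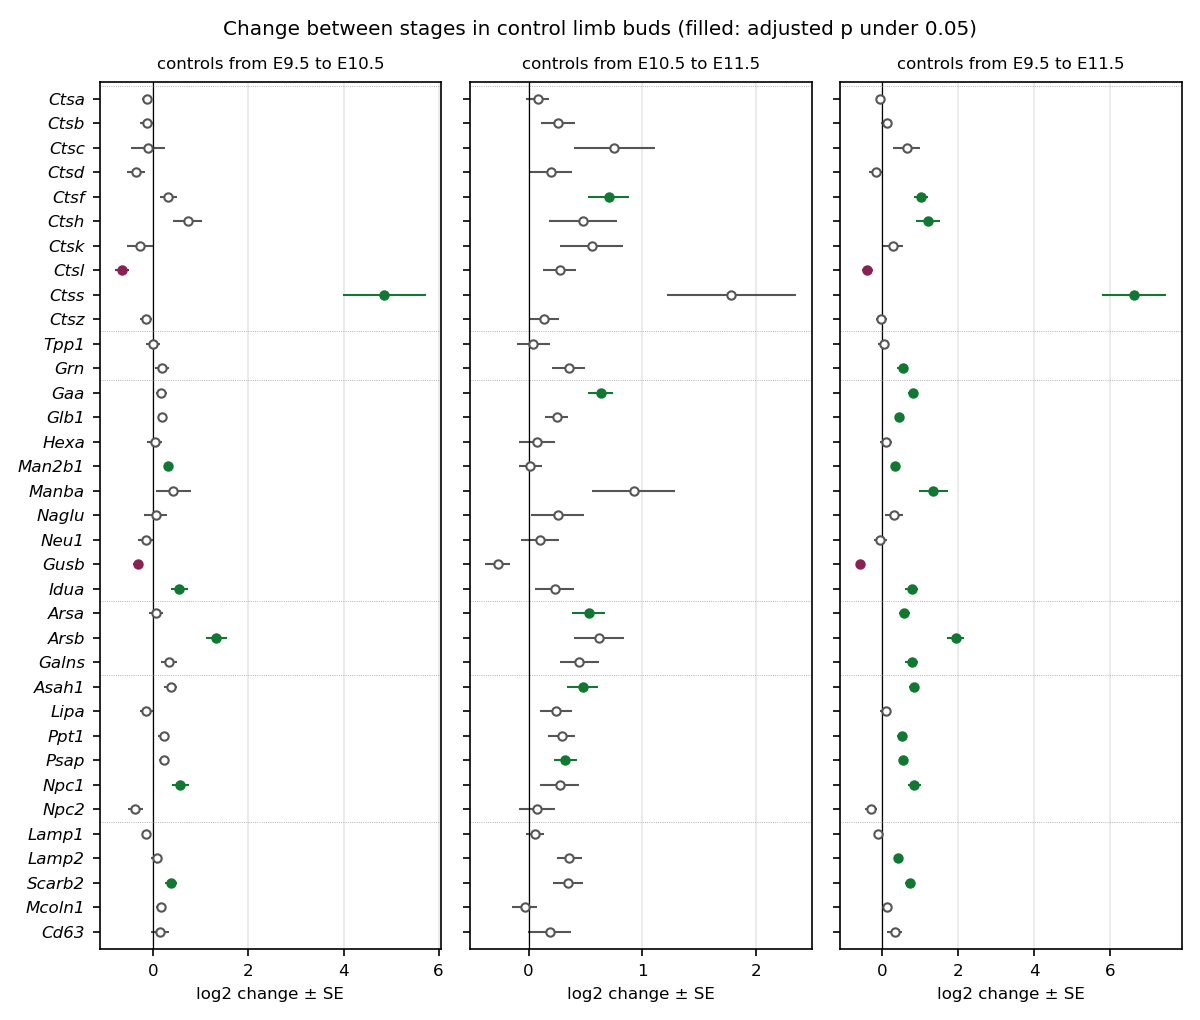
Log2 change ± SE of each lysosome gene between control stages, with E9.5 to E10.5, E10.5 to E11.5 and E9.5 to E11.5 in separate panels with their own axes; filled points passed the edgeR test. In the last panel 18 genes rise and 2, Ctsl and Gusb, fall.

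The changes came in both intervals. From E9.5 to E10.5, 6 members rose and 2 fell, beside 15% and 12.5% of all genes, or 8 in either direction beside 27.5%: Arsb (1.32), Ctss, Npc1 (0.57), Idua (0.55), Scarb2 (0.37) and Man2b1 (0.31) rose, and Ctsl (-0.66) and Gusb (-0.32) fell. With the length trend removed, the numbers were 4 and 4. The numbers of all genes called with the trend removed are not given here. The calls of Arsb, Ctss and Ctsl held in all 6 fits without 1 library of these stages. That of Npc1 held in 4 (log2 change down to 0.33), those of Man2b1 and Scarb2 in 3 (Scarb2 down to 0.23), that of Gusb in 2 (as near 0 as -0.16) and that of Idua in 1 (down to 0.39). Each of these smallest changes came without control E9.5 replicate 1. In the later interval, E10.5 to E11.5, 5 rose and 0 fell, beside 6.6% and 2.89%, or 9.49% in either direction: Ctsf (0.71), Gaa (0.63), Arsa (0.53), Asah1 (0.48) and Psap (0.33). Of these 5 calls, that of Gaa held in all 6 fits without 1 library, those of Arsa and Asah1 in 1 fit each, that of Ctsf in 2 and that of Psap in 0. In the same interval 26 of 35 members (74.3%) had all E11.5 controls above all E10.5 controls and 1 had them below, beside 19.5% and 18.4% of all genes. In the earlier interval 11 were above and 5 below (31.4% and 14.3%), beside 22.2% and 16.9%.

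Man2b1 prompted the choice of these genes by its difference between mutants and controls, so its values in that contrast are given as a description with no test. It lies at chr8:85083270-85098282 on the plus strand and encodes the enzyme that trims mannose from glycoproteins in the lysosome. At E9.5 it was at 33.4, 35.01 and 30.9 CPM in controls and at 40.7, 39.7 and 37.0 CPM in mutants. At E10.5 controls were at 42.4, 37.6 and 43.4 CPM and mutants at 89.0, 87.0 and 107.1 CPM. At E11.5 controls were at 38.1, 42.2 and 44.5 CPM and mutants at 78.5, 73.8 and 79.0 CPM. All mutant libraries lay above all controls of their stage. The log2 difference was 0.24 ± 0.10 at E9.5, 1.20 ± 0.10 at E10.5 and 0.89 ± 0.10 at E11.5.

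The other 34 members were compared between mutants and controls at each stage. Because these contrasts prompted the list, the shares of all genes called are printed beside the counts and nothing is read from them. At E9.5, 0 members passed, beside 0.184% of all genes (0.179% higher and 0.00497% lower), and DESeq2 and limma-voom also called 0. At an unadjusted p under 0.05 there were 2 of the 34, beside 1996 of the 20118 genes tested. Only for Ctsh did all E9.5 mutants (1.94 to 2.35 CPM) lie above all E9.5 controls (1.12 to 1.92 CPM), with a log2 difference of 0.50 ± 0.31 (adjusted p = 0.53), beside 5.26% of all genes. No member had all mutants below, beside 3.61% of all genes.

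At E10.5, 5 of the 34 rose in mutants and 2 fell, beside 7.3% and 6.63% of all genes, or 13.9% in either direction, with a median log2 difference of 0.11 against 0.02 for all genes. Of the rises, 4 were cathepsin genes and the other was Lamp1. At E11.5, 5 rose and 3 fell, beside 8.02% and 9.52%, or 17.5% in either direction, with a median of -0.14 against 0.01. Here 3 cathepsin genes, Gusb and Lamp1 rose, and Gaa, Arsa and Arsb fell. Members without overlap between the mutant and control libraries numbered 11 higher and 4 lower at E10.5 (beside 22.9% and 23.2% of all genes) and 7 higher and 8 lower at E11.5 (beside 19.8% and 20.7%).

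**Figure D3:**
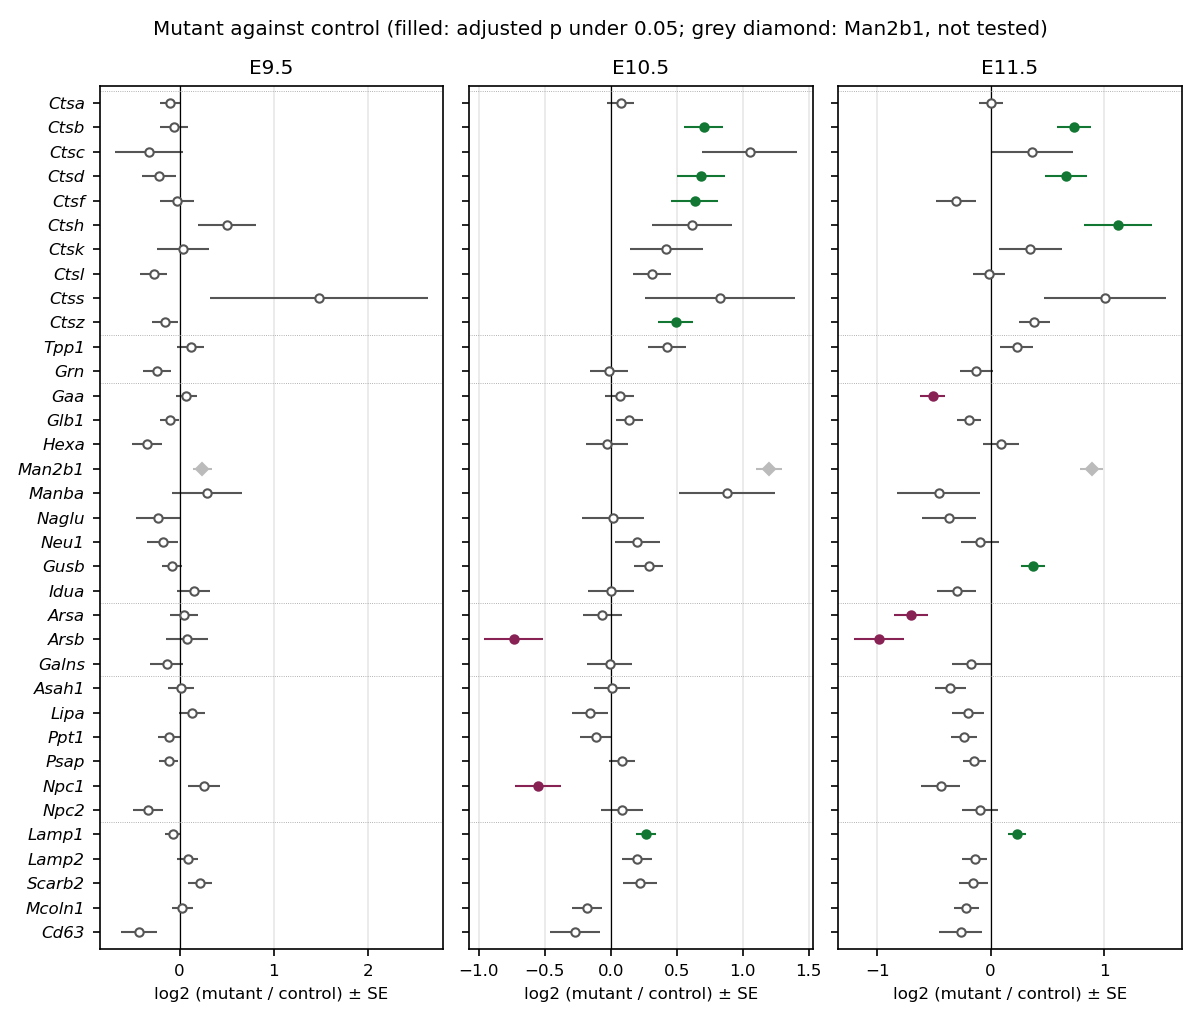
Log2 difference ± SE between mutants and controls for each lysosome gene at the 3 stages, in panels with their own axes; filled points passed the edgeR test, and Man2b1 is a grey diamond with no test. No point is filled at E9.5, 7 are filled at E10.5 and 8 at E11.5.

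Cathepsin B and cathepsin D were higher in mutants at both later stages. Ctsb, which encodes a cysteine protease (chr14:63122462-63145923), was at 152.4, 140.8 and 146.5 CPM in E9.5 controls and 146.8, 139.3 and 136.0 CPM in E9.5 mutants, so these groups overlapped. At E10.5 it was at 129.7, 143.5 and 124.9 CPM in controls and at 173.4, 213.8 and 261.7 CPM in mutants (log2 difference 0.71 ± 0.15, adjusted p = 0.0041). At E11.5 it was at 139.0, 163.2 and 174.7 CPM in controls and at 321.3, 261.2 and 211.0 CPM in mutants (0.73 ± 0.15, adjusted p = 0.0025). No mutant library overlapped the controls at these 2 stages, and both calls held in all 6 fits without 1 library of the stage.

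Ctsd, the main aspartic protease of the lysosome (chr7:142375911-142388038), was at 51.7, 57.2 and 53.1 CPM in E10.5 controls and 74.2, 90.9 and 95.0 CPM in E10.5 mutants (0.68 ± 0.18, adjusted p = 0.018). At E11.5 it was at 58.1, 67.3 and 60.4 CPM in controls and 117.7, 100.1 and 76.3 CPM in mutants (0.66 ± 0.18, adjusted p = 0.018). The groups did not overlap, but the calls held in 2 and 3 of the 6 fits without 1 library, with adjusted p up to 0.082 and 0.089. At E9.5 control replicate 1, at 94.7 CPM, was above the other 5 libraries (55.1 to 68.0 CPM). Ctsd shares part of its strand with another annotated gene, and read pairs that overlap both are not counted.

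Ctsz, a carboxypeptidase gene, was at 55.3, 55.8 and 54.9 CPM in E10.5 controls and 69.2, 75.9 and 88.1 CPM in mutants (0.49 ± 0.13, adjusted p = 0.022). At E11.5 the groups again did not overlap, with controls at 59.0, 62.6 and 60.6 CPM and mutants at 89.0, 75.9 and 73.2 CPM, and the difference did not pass (0.39 ± 0.13, adjusted p = 0.058). Ctsf was at 10.1, 9.30 and 10.9 CPM in E10.5 controls and 15.3, 13.95 and 17.8 CPM in mutants (0.64 ± 0.18, adjusted p = 0.024). At E11.5 its order was turned, with all mutants (12.99 to 13.5 CPM) below all controls (14.3 to 17.9 CPM), at a log2 difference of -0.30 that did not pass (adjusted p = 0.27). The E10.5 call of Ctsz held in 1 and that of Ctsf in 3 of the 6 fits without 1 library.

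Ctsh was at 2.93, 4.40 and 2.88 CPM in E11.5 controls and 9.71, 8.11 and 4.35 CPM in mutants (1.12 ± 0.30, adjusted p = 0.016). The lowest mutant lay just under the highest control, and 2 of the 6 fits that left out 1 library kept the call. Ctss, at 9.71, 4.93 and 3.86 CPM in E11.5 mutants against 2.53 to 3.37 CPM in controls, had a log2 difference of 1.01 ± 0.54 (adjusted p = 0.22). Ctsc had 1.05 ± 0.36 at E10.5 (adjusted p = 0.062) with overlapping groups. All 10 cathepsin genes had positive differences at E10.5 (median 0.63) and 8 at E11.5 (median 0.38), beside 10391 and 10305 of the 20118 genes tested. Classes were assigned with values in view, so nothing is read from these counts. Ctsa, Ctsk and Ctsl passed at no stage, with differences of 0.07, 0.42 and 0.31 at E10.5 and 0.00, 0.35 and -0.01 at E11.5.

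Lamp1 (chr8:13159161-13175338) differed by a small amount with a tight spread. It was at 166.6, 167.1 and 175.6 CPM in E10.5 controls and 199.5, 209.3 and 203.5 CPM in mutants (0.27 ± 0.08, adjusted p = 0.029). At E11.5 it was at 169.7, 179.7 and 179.8 CPM in controls and 213.4, 213.3 and 193.9 CPM in mutants (0.23 ± 0.08, adjusted p = 0.049). The groups did not overlap, but the E10.5 call held in 0 and the E11.5 call in 1 of the 6 fits without 1 library. The other membrane protein genes, Lamp2, Scarb2, Mcoln1 and Cd63, passed at no stage, with differences of 0.20, 0.22, -0.18 and -0.27 at E10.5 and -0.14, -0.15, -0.21 and -0.27 at E11.5. Tpp1 had 0.43 (adjusted p = 0.059) and 0.23 at these stages, with no overlap of groups at either stage, and Grn had -0.01 and -0.12.

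Among the sulfatase genes the called differences were falls. Arsb was at 14.3, 22.1 and 16.7 CPM in E10.5 controls and 11.6, 10.1 and 10.2 CPM in mutants (-0.74 ± 0.22, adjusted p = 0.035, held in 1 of the 6 fits without 1 library). At E11.5 it was at 27.2, 25.3 and 29.0 CPM in controls and 14.3, 13.2 and 13.6 CPM in mutants (-0.98 ± 0.22, adjusted p = 0.0053). Arsa was at 16.8, 17.5 and 19.5 CPM in E11.5 controls and 12.0, 11.4 and 9.64 CPM in mutants (-0.70 ± 0.15, adjusted p = 0.0034). Both E11.5 calls held in all 6 fits and in neither gene did the groups overlap. Galns had differences of -0.01 at E10.5 and -0.17 at E11.5, neither called.

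The glycosidase genes split. Gaa was at 48.9, 61.4 and 61.0 CPM in E11.5 controls and 46.0, 38.8 and 35.5 CPM in mutants (-0.51 ± 0.11, adjusted p = 0.0043), with the call held in all 6 fits without 1 library. Gusb was at 54.8, 49.8 and 46.5 CPM in E11.5 controls and 64.6, 63.8 and 67.4 CPM in mutants (0.37 ± 0.11, adjusted p = 0.023), with the call held in 3 of the 6. In neither gene did the groups overlap. Manba, at 0.88 ± 0.37 in E10.5 mutants (adjusted p = 0.12), owed part of its mean to replicate 3, at 9.75 CPM against 3.25 and 3.80 CPM in the other mutants. Glb1, Hexa, Naglu, Neu1 and Idua passed at neither stage, with differences of 0.14, -0.03, 0.02, 0.20 and 0.00 at E10.5 and -0.19, 0.09, -0.36, -0.10 and -0.30 at E11.5.

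Among the lipid genes, Npc1 was at 48.1 ± 2.88 CPM in E10.5 controls and 32.8 ± 1.47 CPM in mutants (-0.55 ± 0.17, adjusted p = 0.043), a call that held in 0 of the 6 fits without 1 library. At E11.5 it was at 58.2 ± 4.66 and 42.9 ± 5.72 CPM (-0.44 ± 0.17, adjusted p = 0.092), and the groups did not overlap at either stage. All 6 lipid genes had negative differences at E11.5 (median -0.22), and 0 of them passed then. Of the 20118 genes tested, 10305 had positive differences at that stage, and nothing is read from the class count. Asah1 had -0.36 (adjusted p = 0.085), and Lipa, Ppt1, Psap and Npc2 had -0.20, -0.23, -0.14 and -0.10. At E10.5 the last 5 genes had 0.01, -0.16, -0.11, 0.08 and 0.09.

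**Figure D4:**
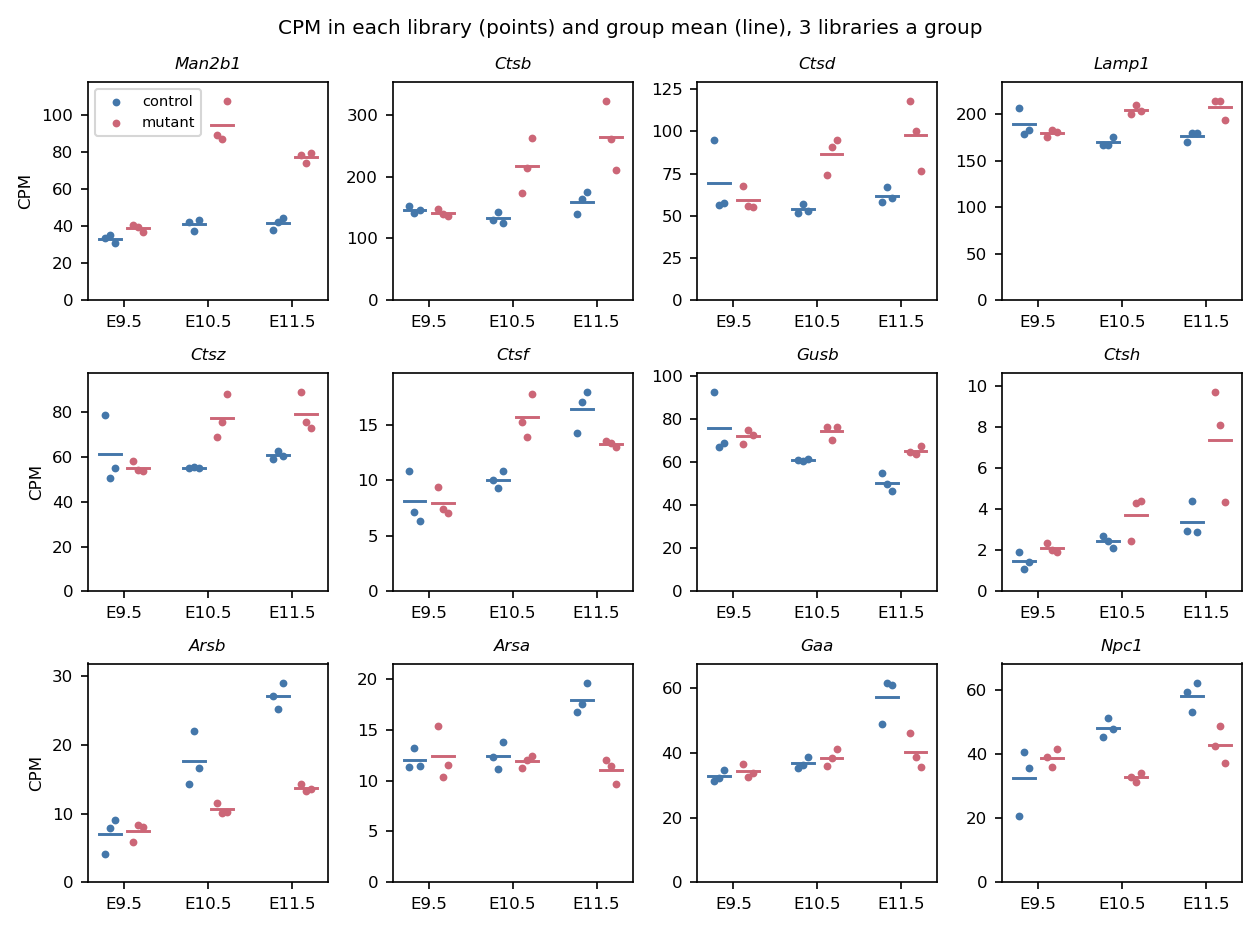
CPM of 12 lysosome genes in each library (points) with the group mean (line), for 3 control and 3 mutant libraries at each stage on axes that start at 0. Mutants lie above controls at E10.5 and E11.5 for Man2b1, Ctsb, Ctsd, Ctsz and Lamp1, and below them at E11.5 for Arsb, Arsa, Gaa and Npc1.

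Each count rested on few libraries. At E10.5 it fell from 7 to between 1 and 5 without 1 library of the stage, with 1 left without mutant replicate 3, 2 without any 1 of the controls and 3 without mutant replicate 2. All genes called fell too, from 2802 to 1473 without mutant replicate 3, to 1587 to 1754 without a control and to 1851 without mutant replicate 2. Among the 2 control and 2 mutant E10.5 libraries whose names begin with 41, a number whose meaning the labels do not give, 0 of the 34 passed with 876 of all genes called. At E9.5 and at E11.5, 1 control and 1 mutant also share a first number, and 2 E11.5 controls share another, too few libraries for a comparison within a number. At E11.5 the count ranged from 4 to 7, with 4 without control replicate 3 and 5 without control replicate 1 or mutant replicate 1. All genes called there fell from 3529 to 2238 without control replicate 3, 2840 without control replicate 1 and 2901 without mutant replicate 1. With both libraries that stood apart left out, 7 members rose and 2 fell at E10.5, and 6 rose and 6 fell at E11.5. The numbers of all genes called in that fit are not given here.

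Whether the difference between mutants and controls changed with stage was tested by interaction contrasts. From E9.5 to E10.5, 0 of the 34 members passed in edgeR, beside 2.22% of all genes (0.925% more positive and 1.29% more negative). DESeq2 called 5 and limma-voom 0. In edgeR 10 of the 34 had an unadjusted p under 0.05, beside 4422 of the 20118 genes tested. From E10.5 to E11.5, 0 passed, beside 0.0746% (0.00497% more positive and 0.0696% more negative), and DESeq2 called 1 and limma-voom 0. Here 6 of the 34 had an unadjusted p under 0.05 in edgeR, beside 1705 of the 20118 genes. From E9.5 to E11.5, 4 passed, beside 6.42% (2.81% more positive and 3.61% more negative). The difference became more positive in Ctsb (0.79 ± 0.21, adjusted p = 0.033) and Ctsd (0.89 ± 0.26, adjusted p = 0.049). It became more negative in Gaa (-0.58 ± 0.16, adjusted p = 0.039) and Arsa (-0.75 ± 0.21, adjusted p = 0.042). Arsb, at -1.06 ± 0.32, did not pass (adjusted p = 0.053). Man2b1, described only, changed by 0.96 ± 0.14 from E9.5 to E10.5 and by -0.31 ± 0.14 from E10.5 to E11.5. All 4 calls from E9.5 to E11.5 were lost in a fit of these 2 stages only and in a fit with a replicate block. Those of Arsa and Ctsd were also lost with limma-voom, and those of Arsa, Ctsd and Gaa with no filter on low counts. That of Ctsd was lost too without both libraries that stood apart. The count of 4 was 0 without control E11.5 replicate 2 or 3, mutant E9.5 replicate 3 or mutant E11.5 replicate 2. It was 1 without control E11.5 replicate 1 or mutant E9.5 replicate 1 or 2, 2 without mutant E11.5 replicate 1 or 3, and 9 without control E9.5 replicate 2. Of all genes, 1291 were called in the main fit. In these fits with 0, 1, 2 and 9 members, 479 to 962, 838 to 995, 601 to 1131 and 3339 were.

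The change over control stages and the difference in mutants share the E11.5 controls, so their values are set side by side and not related to each other. Arsb had a log2 change of 1.94 over control stages and a difference of -0.98 in E11.5 mutants, Gaa of 0.80 and -0.51, and Arsa of 0.58 and -0.70. Gusb had -0.59 and 0.37. Ctsh, the other tested member called in both, had 1.20 and 1.12, and Man2b1, whose difference in mutants is described only, had 0.33 and 0.89. E11.5 mutants were at 9.64 to 12.0 CPM for Arsa, where E9.5 mutants were at 10.4 to 15.3 CPM. They were at 35.5 to 46.0 CPM for Gaa, where E9.5 mutants were at 32.6 to 36.4 CPM, and at 13.2 to 14.3 CPM for Arsb, where E9.5 mutants were at 5.91 to 8.36 CPM. The ranges overlapped across mutant stages for Arsa and Gaa, and not for Arsb. Stages were not tested within mutants.

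Markers of macrophages moved with the mutant group and with stage. The summed level of 20 macrophage markers ran from 7.96 to 10.9, 39.4 to 54.6 and 77.6 to 93.8 CPM in controls at the 3 stages. In mutants it ran from 9.09 to 16.1, 72.5 to 121.2 and 164.7 to 335.7 CPM. In mutants 0, 8 and 15 of the 20 were called higher at the successive stages and 0 lower, beside 0.179%, 7.3% and 8.02% of all genes higher. In controls 18 rose from E9.5 to E11.5, beside 25.3% of all genes. At E9.5 the scavenger receptor gene Msr1 was at 0 in all libraries of both genotypes, and 17 of the 20 were under 1 CPM in every control library. Macrophages are rich in cathepsins, and the part of these markers in the cathepsin results was not tested. Of 8 osteoclast markers, Dcstamp, needed for osteoclast fusion, was at 0 in 17 of the 18 libraries and at 0.039 CPM in mutant E11.5 replicate 2. The 6 osteoclast markers tested gave 1 rise and 1 fall at E10.5 and 2 falls at E11.5. Surface ectoderm markers (11 of 12 higher at E10.5 and 10 at E11.5) and erythroid markers (10 of 14 higher at E10.5, 0 at E11.5) moved too, as did forelimb mesenchyme markers (3 and 4 of 7 lower). Of 13 endothelial markers 4 rose at E10.5, and 2 rose and 1 fell at E11.5. Of 7 platelet markers tested 0 passed in mutants at any stage, with median log2 differences of 1.35, 0.76 and -1.12 at the successive stages. In the change of the mutant difference from E9.5 to E11.5, 2 platelet markers were called more negative, beside 3.61% of all genes. These marker counts stand beside 7.3% higher and 6.63% lower of all genes at E10.5, and 8.02% and 9.52% at E11.5. Mitochondrially encoded transcripts took 0.531% to 0.758% of counts in E10.5 controls and 0.987% to 1.08% in E10.5 mutants, without overlap. The part of these in the lysosome results was not tested either.

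**Figure D5:**
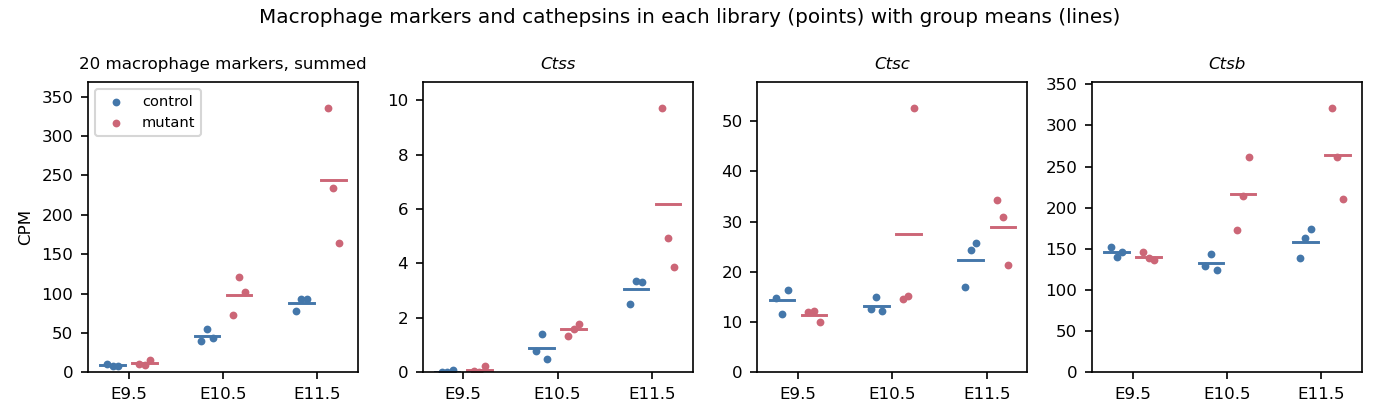
Summed CPM of 20 macrophage markers and CPM of Ctss, Ctsc and Ctsb in each library (points) with group means (lines), by stage and genotype, on axes that start at 0. The marker sum runs from 164.7 to 335.7 CPM in E11.5 mutants and from 77.6 to 93.8 CPM in E11.5 controls, and the high Ctsc point at E10.5 is mutant replicate 3, at 52.6 CPM.

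Other genes of the pathway differed in both directions. Of 33 further lysosomal hydrolase genes, 4 rose and 3 fell in E10.5 mutants, and 3 rose and 4 fell at E11.5, beside 7.3% higher and 6.63% lower of all genes at E10.5 and 8.02% and 9.52% at E11.5. Acp2, an acid phosphatase, fell at both stages (-0.38, adjusted p = 0.0054, and -0.49, adjusted p = 0.00060). Ids, which removes sulfate from heparan and dermatan sulfate, also fell at both (-0.73, adjusted p = 0.0098, and -1.02, adjusted p = 0.00076). Naaa, an amidase of fatty acid ethanolamides, rose at both (0.58, adjusted p = 0.049, and 1.15, adjusted p = 0.000687). Of 24 further membrane protein genes, 0 rose and 3 fell at each of these stages. Ctns, the cystine exporter, fell by 0.65 (adjusted p = 0.0023) and by 0.66 (adjusted p = 0.0018), and Tmem106b by 0.40 (adjusted p = 0.048) and by 0.64 (adjusted p = 0.0027). Slc17a5, the sialic acid exporter, fell at E10.5 (-0.52, adjusted p = 0.037).

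Counts for the machinery that acidifies, supplies and senses lysosomes stand beside the 13.9% of all genes called at E10.5 and 17.5% at E11.5. Of 17 subunit genes of the V-ATPase, the proton pump, 1 passed: Tcirg1 rose at E10.5 (0.72 ± 0.20, adjusted p = 0.026). Among 18 genes of enzyme sorting, M6pr, a mannose 6-phosphate receptor, rose (0.26, adjusted p = 0.039) and Sort1, a sorting receptor, fell (-0.58, adjusted p = 0.047) at E10.5, and Nagpa, which uncovers the mannose 6-phosphate tag, rose at E11.5 (0.41, adjusted p = 0.020). Among 17 genes of lysosomal transcription and nutrient sensing, Rragb (-0.65, adjusted p = 0.0035) and Fnip1 (-0.44, adjusted p = 0.016), both of nutrient sensing through mTORC1, fell at E10.5. At E11.5, 1 rose and 1 fell, and the rise was that of Tfec, a relative of TFEB known from macrophages (1.64 ± 0.34, adjusted p = 0.0027). Of 19 autophagy genes 0 rose and 4 fell at each of these stages, beside 6.63% and 9.52% of all genes lower. Wipi1, a phagophore protein gene, fell by 0.48 (adjusted p = 0.0034) and by 0.67 (adjusted p = 0.00024), and Ulk2, a kinase that starts autophagy, by 0.99 (adjusted p = 0.00031) and by 0.87 (adjusted p = 0.00074). Optn, an autophagy receptor gene, fell at E10.5 (-0.93, adjusted p = 0.0032). At E9.5 edgeR called 0 genes of these 6 lists. At an unadjusted p under 0.05 there were 0 to 5 of each, beside 1996 of the 20118 genes tested.

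In controls from E9.5 to E11.5, where 25.3% of all genes rose and 21.8% fell, these lists gave calls in both directions. Rises and falls numbered 14 and 5 of 33 for the further hydrolases, 7 and 2 of 24 for the membrane proteins and 4 and 4 of 17 for the V-ATPase. They numbered 2 and 5 of 18 for enzyme sorting, 5 and 3 of 17 for transcription and nutrient sensing, and 7 and 5 of 19 for autophagy.

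Set against the upstream sequences shown above, members with CACGTG in the window gave 3 rises (Ctsd, Ctsf and Lamp1) and 0 falls of 10 in E10.5 mutants, beside 7.3% and 6.63% of all genes. The 19 members with a window, Man2b1 left out, and no CACGTG gave 1 rise and 1 fall. At E11.5 the 10 with CACGTG gave 2 rises (Ctsd and Lamp1) and 2 falls (Gaa and Arsa), and the 19 without gave 1 and 1, beside 8.02% and 9.52%. In controls from E9.5 to E11.5, 4 of the 10 rose and 1 fell, and of the 20 without, Man2b1 included, 10 rose and 1 fell, beside 25.3% and 21.8%. Asah1, Ctsb, Ctsh, Galns and Npc1, which had no window, are in none of these counts, so the mutant calls of Ctsb and Npc1 at E10.5 and of Ctsb and Ctsh at E11.5 are left out. The median log2 difference in mutants was 0.11 with and 0.20 without the core at E10.5, and -0.20 and -0.12 at E11.5.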

How the data were processed

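RNA was measured in 18 libraries, 3 in each of 6 groups of genotype and stage. The authors counted reads per gene with featureCounts 1.6.4, run paired-end and reverse-stranded over the exons of each gene in GENCODE M22 on mm10, per the file headers. The submitters' processing notes also name cutadapt, STAR and limma (settings: not given in the sources used here). Read pairs that overlap 2 genes on 1 strand are by default left out, and 7 members (Ctsd, Ctsl, Ctss, Glb1, Manba, Arsb and Galns) overlap another annotated gene on their strand, so they may be counted low. A second table deposited by the authors holds log2 FPKM for 14692 genes, and was used for 1 alternative only (normalization: not given in the sources used here). Symbols were assigned by gene identifier, for 99.83% of 55487.

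Counts were analysed as deposited in R 4.3.3 with edgeR 4.0.16. filterByExpr kept 20118 genes, libraries were scaled by TMM, and 1 robust quasi-likelihood model with the 6 groups as coefficients was fitted to all libraries. Adjusted p-values are edgeR's, with Benjamini-Hochberg adjustment over all genes tested, and the threshold was 0.05. Rose, fell and called mean past that threshold. Fold changes are log2 values with their standard error (SE), levels are CPM, and FPKM divide these by the exon length in the files. The fit was tested on simulated data. Alternatives used DESeq2 1.42.0, limma 3.58.1 (limma-voom and the authors' log2 FPKM), other normalization and filters, a mean log2 CPM of at least 1, a trend of each library on gene length removed, each comparison's stages alone, a replicate block, and each library left out. The length trend was tried because the E9.5 difference followed gene length across 12949 genes (Spearman 0.54, genes not being independent replicates). The mutant differences at E10.5 and E11.5 had -0.29 and -0.22. Controls had 0.38 from E9.5 to E10.5, 0.15 from E10.5 to E11.5 and 0.34 from E9.5 to E11.5. The changes of the mutant difference had -0.51, 0.07 and -0.44 over the same pairs of stages, in that order. The median length was 4499 bases among the members and 4482 among these 12949 genes, which are those at a mean log2 CPM of at least 1. Promoter windows are RefSeq's (GRCm38.p6). In 31 of 32 member windows the last 20 bases were found in an annotated transcript. Replicates of a group differed by 16.3 to 291.6 in chi-square per gene, so none was a duplicate.

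The members and the other lists were chosen with earlier results of these data known, and classes of members were assigned with values in view. Every member is named. Values per library are given for Man2b1, for up to 6 other members with the smallest adjusted p in each mutant contrast, and for up to 3 in each direction in controls from E9.5 to E11.5, and other members by single values. Per other list, up to 3 called members with the smallest adjusted p are named. At these depths the spread between libraries limited the precision of the members, and for Ctss at E9.5 and E10.5 counting error did too.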

Additional observations from a re-analysis of the deposited data

Results flagged for a closer look

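In 4 members the difference between mutants and controls changed between E9.5 and E11.5 by edgeR's interaction test. The change was 0.7935 in Ctsb (log2, SE 0.21, adjusted p = 0.033) and 0.886 in Ctsd (SE 0.26, adjusted p = 0.049). It was -0.5783 in Gaa (SE 0.16, adjusted p = 0.039) and -0.7502 in Arsa (SE 0.21, adjusted p = 0.042). Of the 12 fits without 1 library of these stages, the call held in 4 for Ctsb, 3 for Ctsd, 5 for Gaa and 4 for Arsa, and the direction in all 12 for each gene. Over these 12 fits the values ran from 0.63 to 0.94 for Ctsb, 0.60 to 1.05 for Ctsd, -0.69 to -0.49 for Gaa and -0.87 to -0.57 for Arsa. All 4 calls were lost in a fit of these 2 stages only and in a fit with a replicate block. Those of Arsa and Ctsd were also lost with limma-voom, and those of Arsa, Ctsd and Gaa with no filter on low counts. That of Ctsd was lost too without both libraries that stood apart. The 20 macrophage markers had a median change of 0.93 in the same contrast, against 0.01 for all genes, with 0 called in edgeR. At an unadjusted p under 0.05 there were 2 of them, beside 5140 of the 20118 genes tested.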

How the results depend on the processing

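Numbers in parentheses are those called of all genes tested in the same fit. In controls from E9.5 to E11.5 the count of 20 (9466) stayed within 1.5 times under every alternative. It ran from 19 to 21 without 1 library. For mutants at E9.5 the count was 0 in every alternative, 0 to 0 without 1 library. For mutants at E11.5 it was 8 (3529), and 4 to 7 without 1 library (2238 in the fit with 4). For mutants at E10.5 it was 7 (2802), against 11 with the stage fitted alone (6337) and 0 among the libraries that share a first number (876). Without 1 library it was 1 to 5 (1473 in the fit with 1). For the change of the mutant difference from E9.5 to E10.5 it was 0 (446), against 5 with DESeq2 (1287). It was 1 each with the length trend removed (569), with the stricter filter (612) and with no filter (371). Without 1 library it was 0 to 6, reaching 6 without control E9.5 replicate 2 (2510). From E10.5 to E11.5 it was 0 (15), against 1 with DESeq2 (190) and 0 to 0 without 1 library. From E9.5 to E11.5 it was 4 (1291), against 2 with limma-voom (1003), 2 with no filter (980) and 0 with the stages alone (301). Without 1 library it was 0 to 9 (3339 in the fit with 9). In controls from E10.5 to E11.5 it was 5, against 8 with DESeq2, 13 without both libraries that stood apart, 2 with no filter, 12 with the stages alone and 1 to 4 without 1 library. In controls from E9.5 to E10.5 it was 8 (5523), against 4 with no filter (4529), 3 with the stages alone (4417) and 4 to 9 without 1 library. Man2b1 in controls from E9.5 to E11.5 turned from 0.33 to -0.0053 with the length trend removed. The causes were not tested. Low counts limit Ctss at E9.5, with 4 counts pooled over the controls, and to a lesser degree at E10.5, with 126.

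Deviations of same-numbered controls and mutants from their group means correlated at -0.26 to 0.32 over the 9 pairs. Those of differently numbered ones correlated at -0.345 to 0.43. With 3 libraries a group these values cannot decide whether replicate numbers pair the libraries. With the replicate block the change of the mutant difference from E9.5 to E11.5 gave 0 in place of 4, with 1090 of all genes in place of 1291. The block gave 6 for mutants at E10.5, 7 at E11.5, and 9, 5 and 20 for controls from E9.5 to E10.5, E10.5 to E11.5 and E9.5 to E11.5. For these contrasts the numbers of all genes called with the block are not given here, so nothing is read from the counts.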
